A study of Mus musculus with 9 samples.

Results

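The antigen presentation genes described here are 10 mouse genes chosen by name: H2-K1, H2-D1, B2m, Tap1, Tap2, Tapbp, Psmb8, Psmb9, Nlrc5 and Ciita. All 10 were found among the 21843 protein-coding genes of the RefSeq annotation that were read. Their chromatin was examined in thymic MYCN-driven T cell lymphoma cells of C57BL/6J mice. ChIPmentation was used, in which a transposase adds sequencing adapters to chromatin that is still bound to the antibody. The series holds 1 library for each of 7 antibodies, against EZH2, SUZ12, H3K27me3, N-MYC, p300, H3K27ac and H3K4me3, and 2 input libraries that were not used here. There was no untreated, wild-type or time-matched group. The promoter that drives MYCN, the age and number of the mice and the number of reads are not given in the sources used here, and the depth behind each peak list is therefore unknown. Each antibody has a single library, so the spread between replicates cannot be measured and no test is reported.

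MHC class I molecules show peptides from inside the cell to CD8+ T cells. H2-K1 and H2-D1 encode class I heavy chains and B2m the light chain that all of them share. Psmb8 and Psmb9 are catalytic subunits of the immunoproteasome, which cuts the peptides, Tap1 and Tap2 form the transporter that carries the peptides into the endoplasmic reticulum, and Tapbp (tapasin) holds the empty class I molecule at the transporter. Nlrc5 is the transactivator of class I genes. Ciita is its counterpart for class II genes, whose products present peptides to CD4+ T cells, mainly on B cells, dendritic cells, macrophages and thymic epithelium. Ciita has several alternative promoters, used by different cell types. Mouse T cells make class I molecules and little or no class II.

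Of the antibodies, EZH2 and SUZ12 are subunits of Polycomb repressive complex 2, and H3K27me3 is the repressive mark that this complex places. H3K4me3 marks active promoters, H3K27ac marks active promoters and enhancers, and p300 is an acetyltransferase found at both. A gene was counted as called on a list when a peak overlapped the 1 kb to either side of its start by at least 1 bp. The height of a peak is the authors' fold enrichment, a linear ratio from the signal column of the peak list, and heights are compared within 1 list and never between antibodies. A missing peak means that the authors' threshold was not passed, and does not show absence.

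The labelled cell type was checked against marker genes. All 10 T-cell markers (Cd3d, Cd3e, Cd3g, Cd2, Cd5, Lck, Zap70, Thy1, Tcf7 and Bcl11b) had both H3K4me3 and H3K27ac at the start, with H3K4me3 folds from 24.2 to 41.8. Of 23 markers of B cells, macrophages, dendritic cells and thymic epithelium, 4 had H3K4me3 at the start (Cd79a 4.74, Cd79b 5.75, Cd14 3.61 and Epcam 19.3), against 51.1% of all genes. Of the same 23, 9 had H3K27ac (51.7% of all genes) and 8 had H3K27me3 (25.8%) there. None of the 23 had p300 (39.3% of all genes) or N-MYC (32.9%) at the start. Of the 10 T-cell markers, 10 had p300, 6 had N-MYC and 1 (Bcl11b) had H3K27me3 there. Ms4a1, Adgre1, Itgax, Xcr1, Siglech, Krt5 and Psmb11 had no peak of the 7 lists at the start, 7 of 23 against 27.6% of all genes. Over the gene body 9 of the 23 had H3K4me3 (54.1% of all genes), 12 had H3K27ac (58.0%) and 1 had p300 (42.1%). The tallest of these peaks were H3K4me3 at Cd79a (32.5), Xcr1 (28.6) and Zbtb46 (22.2) and p300 at Xcr1 (10.1), so the other cell types' markers were not free of active marks.

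The 4 promoter sequences below are shown because the class I genes differed in which factors were called within 1 kb of the start. A peak called there need not lie over the printed bases. They are RefSeq sequences of build GRCm38.p6, read 5′ to 3′. The first 3 end at the base before the annotated start, for H2-K1 the upstream one of its 2 starts. Capitals mark matches, on either strand, to the 5 motifs that were searched: the MYC E-box CACGTG, the interferon response core (GAAA, any 2 bases, GAAA), the NF-κB site of the class I enhancer GGGATTCCC, the CREB-type site TGACGC and the NF-Y box CCAAT.
H2-K1 (chr17:34000348-34000597, minus strand): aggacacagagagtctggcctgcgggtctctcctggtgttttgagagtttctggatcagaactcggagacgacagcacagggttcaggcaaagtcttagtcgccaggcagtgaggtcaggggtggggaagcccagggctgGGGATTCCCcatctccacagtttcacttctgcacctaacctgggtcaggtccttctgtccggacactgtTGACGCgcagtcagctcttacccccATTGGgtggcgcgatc
H2-D1 (chr17:35262844-35263093, plus strand): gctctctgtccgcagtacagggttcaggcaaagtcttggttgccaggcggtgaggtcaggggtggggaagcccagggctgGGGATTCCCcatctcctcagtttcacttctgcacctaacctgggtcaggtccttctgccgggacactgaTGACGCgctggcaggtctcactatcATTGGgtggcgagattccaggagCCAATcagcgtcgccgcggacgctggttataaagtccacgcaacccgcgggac
B2m (chr2:122147437-122147686, plus strand): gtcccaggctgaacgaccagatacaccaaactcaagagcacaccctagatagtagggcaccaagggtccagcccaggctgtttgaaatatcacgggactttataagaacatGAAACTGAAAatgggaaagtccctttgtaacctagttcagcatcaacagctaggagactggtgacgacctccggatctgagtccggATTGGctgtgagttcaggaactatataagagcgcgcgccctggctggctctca
Psmb9-Tap1 (chr17:34187331-34187555, plus strand, all bases between the 2 starts): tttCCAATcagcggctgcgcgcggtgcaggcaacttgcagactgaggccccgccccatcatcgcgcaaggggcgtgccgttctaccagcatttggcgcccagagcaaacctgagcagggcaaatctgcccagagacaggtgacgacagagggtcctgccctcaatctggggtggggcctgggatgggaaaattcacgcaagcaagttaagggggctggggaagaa

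The H2-K1 and H2-D1 promoters are close copies: over 177 aligned bases 161 were identical (91.0%), and the 177 bases hold GGGATTCCC and TGACGC in both. Among the 32851 promoter windows of the RefSeq table, each 300 bases long (250 before and 50 from the start on), GGGATTCCC occurred in 0.353%, TGACGC in 7.40%, the interferon response core in 3.44%, CCAAT in 37.4% and CACGTG in 7.15%. Of the 7 members in that table (all but Tap2, Nlrc5 and Ciita), H2-K1 and H2-D1 held GGGATTCCC and TGACGC, and B2m held the interferon response core. Of the same 7, all but Psmb8 held CCAAT, and none held CACGTG. Only exact matches to these letters were counted. Variant forms of the same sites were not searched, so a promoter without a match may still hold one. A match describes letters in this window and is not evidence of a bound factor. The N-MYC summits at H2-D1 (130 bp inside the gene) and B2m (162 and 417 bp) lay beyond the window. The sequence under them was therefore not searched. Heavy-chain genes belong to a multigene family, so reads from near-identical copies could be placed at either gene, and the part of this in the values below was not tested.

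The 9 class I pathway genes carried H3K4me3, H3K27ac and p300 at the start, without SUZ12 or H3K27me3. All 9 had H3K4me3 (51.1% of all genes had it), all 9 had H3K27ac (51.7%) and all 9 had p300 (39.3%), and the 3 together were found at 38.8% of all genes. EZH2 was called at 8 of the 9 (45.8%), with Nlrc5 as the exception, and N-MYC at 5 of the 9 (32.9%). The N-MYC count rested on low peaks: with a fold of at least 4, or a q-value of at most 1e-05, it was 2 (H2-D1 and Nlrc5). SUZ12 was called at 0 of 9 (13.7%) and H3K27me3 at 0 of 9 (25.8%), and neither was called anywhere in the bodies of these genes (14.9% and 30.2%; either of them 30.4%). Over the gene body the other calls fell at the same genes: EZH2 at 8 of the 9 (47.1%), N-MYC at 5 (35.4%), p300 at 9 (42.1%), H3K27ac at 9 (58.0%) and H3K4me3 at 9 (54.1%). The gene body includes the start, so these counts are not a separate reading. Without the 1 kb next to the start they were 5 for EZH2, 0 for N-MYC and 5 for p300, and unchanged for H3K27ac and H3K4me3. EZH2 without SUZ12 or H3K27me3 at the start was found at 8 of the 9, against 31.4% of all genes. EZH2 with H3K4me3, H3K27ac and p300 but no SUZ12 or H3K27me3 there was also found at 8 of the 9, against 29.7%. The genes do not count as 9 independent sites, because the Psmb9 and Tap1 starts lie 226 bp apart and share their peaks in all 5 lists called there, and Psmb8 and Tap2 share 1 H3K27ac peak.

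**Figure D1:**
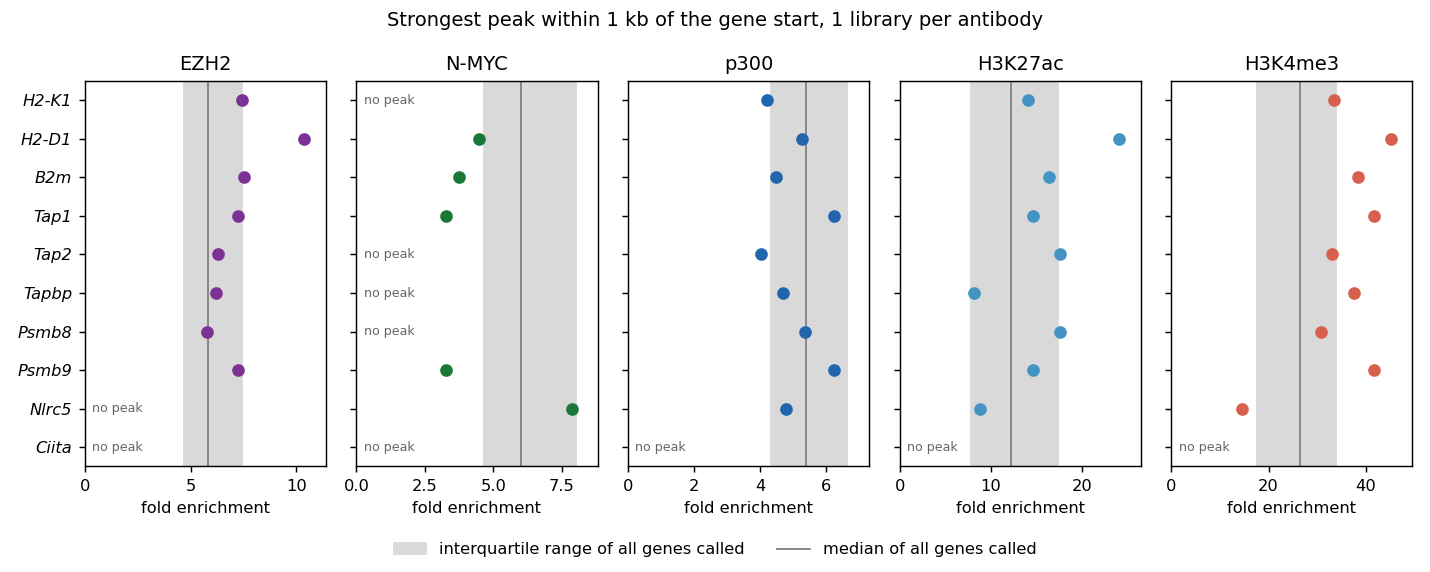
Fold enrichment (linear axis) of the strongest peak within 1 kb of the start, for each of the 10 genes (rows) in 5 of the 7 lists (panels), with 1 library per antibody. The grey band and line are the interquartile range and median over all genes called on that list; SUZ12 and H3K27me3 are not drawn because no member had a peak there. The N-MYC points of H2-D1, B2m, Tap1 and Psmb9 lie below the band, that of Nlrc5 (7.86) lies above the median of 6.00, and Ciita has no peak.

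Among the heavy chains, H2-D1 had the highest H3K4me3, H3K27ac and EZH2 folds of the 10 genes. At H2-D1 (chr17:35263094-35267497) the strongest peaks had folds of 45.1 for H3K4me3, 24.1 for H3K27ac, 5.27 for p300, 10.4 for EZH2 and 4.47 for N-MYC. Its H3K4me3 peak was higher than that of 98.6% of the genes called on that list, and its EZH2 peak higher than that of 93.9%. The N-MYC peak, in contrast, was higher than that of only 18.9%.

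At H2-K1 (chr17:33996012-34000619) the strongest peaks were at 7.44 for EZH2, 4.20 for p300, 14.1 for H3K27ac and 33.5 for H3K4me3, each below the value at H2-D1. N-MYC was not called at the H2-K1 start. The nearest N-MYC peak (fold 5.68) lay 3969 bp beyond the other end of the gene, 8.30 kb from the start. The pair thus carried the same pattern in the other 6 lists and differed in the N-MYC call. The H2-D1 N-MYC peak lay from 22 to 307 bp inside the gene, outside the promoter bases aligned above. The identity of those bases therefore does not bear on the sequence under that peak. The annotated H2-K1 gene reaches 272 bases past the start used here.

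B2m, which every class I molecule needs, resembled the heavy chains. At B2m (chr2:122147687-122153082) the folds were 38.5 for H3K4me3, 16.4 for H3K27ac, 4.47 for p300, 7.51 for EZH2 and 3.74 for N-MYC. B2m had 2 narrow N-MYC peaks (folds 3.47 and 3.74) within 580 bp inside the gene, and the stronger was higher than that of 6.52% of the genes called. B2m therefore combined an H3K4me3 peak higher than that of 88.2% of called genes with an N-MYC peak near the bottom of its list. B2m lies within the annotated extent of Patl2, whose start (122186189) is far from these peaks.

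The Psmb9, Tap1, Psmb8 and Tap2 genes lie side by side on chromosome 17, in 34292 bp from 34182030 to 34216321. H3K27ac peaks covered 59.7% of this block, H3K4me3 peaks 17131 bp of it, p300 peaks 24.4% and EZH2 peaks 11.6%. N-MYC had 1 peak covering 1.42%, and SUZ12 and H3K27me3 had none. One H3K27ac peak of 11422 bp ran from the end of Tap1 across all of Psmb8 into Tap2, with a fold of 17.6, and was wider than 99.9% of the peaks of its list. The Psmb8 gene (chr17:34198195-34201454) was covered in full by H3K27ac and H3K4me3, and to 76.4% by p300.

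**Figure D2:**
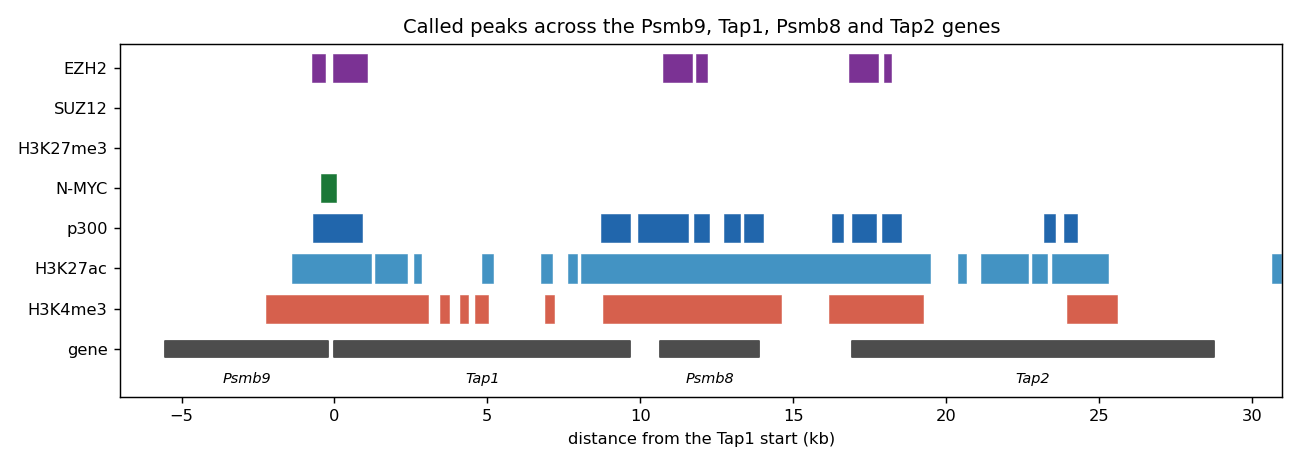
Peaks of the 7 lists (rows, bars drawn to scale) across Psmb9, Tap1, Psmb8 and Tap2, with distance from the Tap1 start in kb. Active marks, p300 and EZH2 lie at all 3 start regions, the 1 N-MYC peak lies between Psmb9 and Tap1, and the SUZ12 and H3K27me3 rows are empty.

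The divergent promoter of Psmb9 (chr17:34182030-34187330) and Tap1 (chr17:34187556-34197225) had folds of 41.7 for H3K4me3, 14.7 for H3K27ac, 6.24 for p300, 7.22 for EZH2 and 3.27 for N-MYC. Its N-MYC peak (34187125 to 34187611) covered the whole stretch printed above and was higher than that of 2.25% of the genes called. Its p300 peak was the highest among the 10 genes, and its H3K4me3 peak of 5295 bp was wider than 98.4% of the list. EZH2 had 2 peaks there, a weaker one of fold 5.51 within Psmb9 (34186837 to 34187257) and the stronger one over the start of Tap1.

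Psmb8 and Tap2 carried EZH2, p300, H3K27ac and H3K4me3 without N-MYC. At Psmb8 the folds were 5.79 for EZH2, 5.36 for p300 and 30.8 for H3K4me3. The summit of that p300 peak lay 1526 bp before the start, inside Tap1, and a second p300 peak of nearly the same fold (5.35) lay over the Psmb8 start itself, with its summit 597 bp inside the gene. At Tap2 (chr17:34204479-34216321) they were 6.29 for EZH2, 4.04 for p300 and 33.1 for H3K4me3. The H3K4me3 peak at Psmb8 was 5828 bp wide, wider than 99.0% of its list. For both genes the closest N-MYC peak was the one between Psmb9 and Tap1, 10.6 kb from Psmb8 and 16.9 kb from Tap2.

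Tapbp (chr17:33919478-33929290) also lacked N-MYC at its start. Its folds were 6.19 for EZH2, 4.69 for p300, 8.13 for H3K27ac and 37.6 for H3K4me3, so that H3K27ac was the lowest of the 9 class I pathway genes while H3K4me3 was above that of 86.0% of called genes. The Zbtb22 gene ends 153 bp before the Tapbp start, and a lncRNA gene, Gm19412, overlaps the start, so the marks cannot be assigned to Tapbp alone. An N-MYC peak (fold 4.79) began 53 bp past the far end of Tapbp, where the Rgl2 gene begins (224 bp past Tapbp).

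H2-K1, Tap2, Tapbp and Psmb8 thus had EZH2, H3K4me3, H3K27ac and p300 without N-MYC, SUZ12 or H3K27me3 at the start, a combination found at 5.18% of all genes. H2-D1, B2m, Tap1 and Psmb9 had the same pattern with N-MYC, which was found at 24.5%. Where N-MYC was called its fold was low: 4 of the 5 members with a peak lay below the median of 6.00 over all 7196 genes called, Nlrc5 being above it. For EZH2 7 of 8 members lay above the median of called genes (5.85), for H3K4me3 8 of 9 (26.5) and for H3K27ac 7 of 9 (12.3), whereas for p300 2 of 9 did (5.39). These tallies count shared peaks more than once. Tap1 and Psmb9 have the same strongest peak in each list, so the p300 tally is 1 peak of fold 6.24. Tap2 and Psmb8 share their H3K27ac peak. Psmb9 enters the EZH2 tally through the peak over the Tap1 start, while the EZH2 peak within Psmb9 (5.51) lay below the median. The H3K27ac tally counts Psmb8 through the 11422 bp peak whose summit lies 6597 bp from its start, inside Tap2. With the summit required within 1 kb of the start, H3K27ac was called at 7 members, without Psmb8 and Nlrc5. The summits of the strongest EZH2 peak of each gene lay between 264 and 708 bp from the start, and those of N-MYC between 21 and 417 bp. The 708 bp is the distance from the Psmb9 start to the summit of the EZH2 peak over the Tap1 start.

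Nlrc5, the class I transactivator (chr8:94434335-94527272), had another pattern than its target genes. The folds at its start were 14.5 for H3K4me3, 8.81 for H3K27ac, 4.77 for p300 and 7.86 for N-MYC, with no EZH2. Its N-MYC peak was the highest of the 10 genes and higher than that of 73.8% of the genes called, whereas its H3K4me3 peak was higher than that of 18.9%. N-MYC with H3K4me3, H3K27ac and p300 but without EZH2 was found at 4.47% of all genes. No EZH2 peak lay in the 92938 bp of the gene, and the nearest one (fold 3.30) was 5733 bp past its end. The lncRNA gene 9330175E14Rik overlaps the Nlrc5 start, so the marks cannot be assigned to Nlrc5 alone.

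At promoters without SUZ12 or H3K27me3 the share of genes with EZH2 moved with the height of H3K4me3. Genes with H3K4me3 and neither of those features at the start were ranked by H3K4me3 fold and divided into 10 groups of 942 or 943. In group 2, which holds Nlrc5 (folds from 14.1 to 19.3), EZH2 was called at 33.5% of genes and N-MYC at 57.5%. In group 6, which holds Psmb8, the shares were 90.2% and 75.3%, and in group 7, which holds Tap2, 93.9% and 76.9%. In group 8, which holds H2-K1, they were 98.6% and 79.6%. Group 9, with B2m and Tapbp, had 98.4% and 84.4%, and group 10, with H2-D1, Tap1 and Psmb9, had 98.5% and 87.7%. The EZH2 call at the 8 members with tall H3K4me3 peaks and its lack at Nlrc5 therefore each matched the more frequent state of their group, while H2-K1, Tap2, Tapbp and Psmb8 lacked the N-MYC peak that most genes of their groups had. The part of promoter strength in these calls was not tested.

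Away from its start Nlrc5 had 6 more H3K27ac peaks inside the gene, of which 5 lay together from 19.2 to 25.5 kb into it with folds from 2.94 to 8.63. The strongest of these nearly equalled the H3K27ac peak at the start. No p300, H3K4me3 or N-MYC peak was called with them. SUZ12 and H3K27me3 were not called in the gene, the nearest H3K27me3 peak lying 6105 bp past its end.

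Ciita, the class II transactivator (chr16:10480014-10531064), differed from all 9 class I pathway genes. None of the 7 lists had a peak within 1 kb of either end of the gene, a state found at 27.6% of all genes. Over its gene body of 51051 bp there were 7 H3K27me3 peaks, 3 H3K27ac peaks and 1 H3K4me3 peak, and no EZH2, SUZ12, N-MYC or p300 peak. Ciita was thus the 1 member with H3K27me3, found over the body of 30.2% of all genes. H3K27me3 over the body without EZH2 or SUZ12 there was found at 13.3%, and H3K27me3 over the body with no peak of the 7 lists at the start at 3.64%.

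The H3K27me3 peaks covered 5047 bp of Ciita (9.89%), more than in 82.0% of all genes. That share is made up mostly of genes without the mark, because 30.2% of all genes had it over the body. It therefore does not rank Ciita among the genes that carry H3K27me3. Of the 7 peaks, 4 lay together from 6.76 to 11.6 kb into the gene (10486777 to 10491565), where they covered 4282 of 4789 bp. The tallest of them had a fold of 7.41 and a width of 2822 bp, and the other 6 peaks of the gene had folds from 2.76 to 4.54. The lncRNA gene LOC115488669 (10502573 to 10518504) lies within Ciita. It holds the peaks from 10506604 to 10506938 and from 10507014 to 10507243, which cannot be assigned to Ciita alone. The H3K4me3 peak of Ciita, 491 bp wide with a fold of 4.14, lay from 8.44 to 8.93 kb into the gene and wholly inside the tallest H3K27me3 peak. Its fold was higher than that of 14.1% of the H3K4me3 list. In bulk chromatin an overlap of both marks on the same alleles and a mixture of cells carrying one or the other cannot be told apart. The positions of the alternative Ciita promoters were not analysed here.

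The 3 H3K27ac peaks lay in another part of Ciita, from 42.1 to 47.2 kb into the gene, and none overlapped H3K27me3. The largest was 3018 bp wide with a fold of 7.73, higher than 85.5% of the H3K27ac list, and the other peaks had folds of 3.79 and 3.11. These peaks end before the annotated extent of the neighbouring gene Dexi (10530207 to 10543054). The nearest EZH2 peak (fold 3.43) and the nearest p300 peak (3.41) lay 11.6 and 11.2 kb past the far end of Ciita, close to the start of Dexi (10543054). The nearest SUZ12 peak was 285.2 kb away and the nearest N-MYC peak 67.7 kb away.

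**Figure D3:**
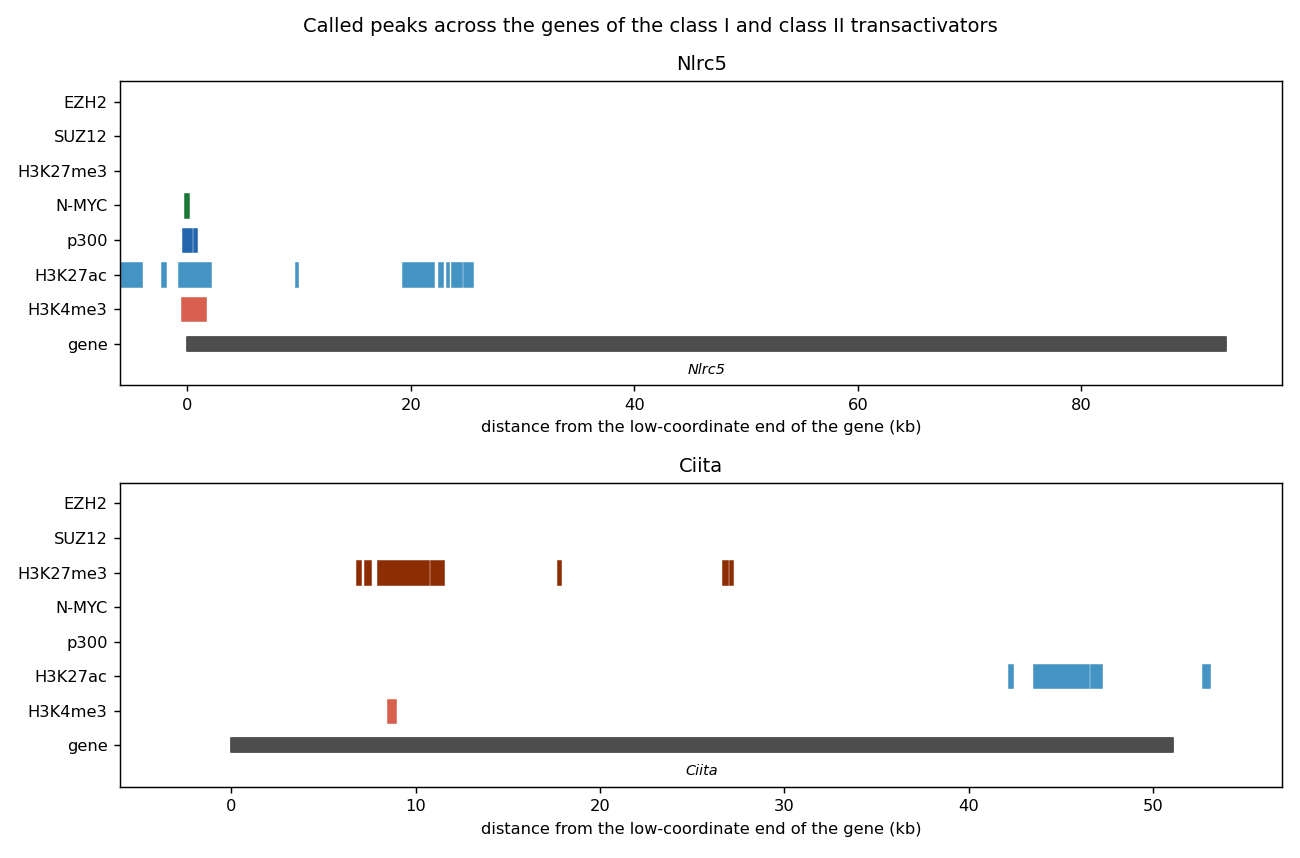
Peaks of the 7 lists (rows, bars drawn to scale) across Nlrc5 (top) and Ciita (bottom), with distance from the low-coordinate end of each gene in kb; the 2 axes differ in scale. Nlrc5 has N-MYC, p300, H3K27ac and H3K4me3 at 0 kb, whereas Ciita has no peak there, H3K27me3 around a small H3K4me3 peak at 8.44 to 8.93 kb and H3K27ac from 42.1 to 47.2 kb.

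The contrast of class I genes with Ciita extended in part to other genes of the 2 pathways. Of 18 further class I and peptide-loading genes, 17 had H3K4me3 (51.1% of all genes), 17 H3K27ac (51.7%), 17 p300 (39.3%), 14 EZH2 (45.8%) and 9 N-MYC (32.9%) at the start, and 0 had SUZ12 (13.7%) or H3K27me3 (25.8%). The exception for the active marks was Cd1d1, which had no peak at either end but H3K4me3 (13.3) and H3K27ac (15.4) inside the gene, and EZH2 was also not called at H2-T24, Mr1 and Tapbpl. The highest N-MYC folds of the group were those of the lectin chaperone Canx (11.2), of the disulfide isomerase Pdia3 (9.87), of the peptide-trimming aminopeptidase Erap1 (8.03) and of the chaperone Calr (6.91). The heavy chains H2-Q4, H2-Q7, H2-Q10, H2-T22 and H2-T23 had EZH2 folds from 4.19 to 7.82 without N-MYC, as H2-K1 did, and H2-Q6 had the weakest N-MYC peak of the group (3.08). Values at these copies are uncertain for the reason given for H2-K1 and H2-D1.

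Of 12 class II and loading genes, 11 had H3K27ac (51.7% of all genes) and 8 had H3K4me3 (51.1%) at the start. EZH2 was called at 2 (H2-Ab1 and H2-DMa; 45.8%), N-MYC at 2 (H2-DMa and Ifi30; 32.9%) and p300 at 3 (H2-Ab1, H2-DMa and Ifi30; 39.3%). H2-DMa, which loads peptides onto class II, had folds of 8.68 for EZH2, 14.0 for N-MYC, 9.79 for p300 and 41.7 for H3K4me3. The class II beta chain H2-Ab1 had 6.83 for EZH2, 24.4 for H3K27ac and 34.4 for H3K4me3. The alpha chain H2-Aa, in contrast, had H3K27ac of 3.16 alone, and the invariant chain Cd74 had H3K27ac of 4.41 alone. SUZ12 was called at the start of 0 of the 12 (13.7%) and H3K27me3 at 1 (25.8%), the protease gene Ctss (4.05). Over the gene body, where Ciita had its H3K27me3, the mark was called at the same 1 of 12 (30.2%). The part of other cells of the thymus in the class II marks was not tested. Beside it stand the counts given above for the 23 markers of other cell types. H3K27ac was called at the start of 9 and over the body of 12, and H3K4me3 at the start of 4 and over the body of 9.

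The genes of pathway regulators and of interferon signalling mostly carried promoter marks. All 18 regulators and interferon signalling genes had H3K4me3 at the start (51.1% of all genes), 17 had H3K27ac (51.7%), 17 EZH2 (45.8%), 16 p300 (39.3%) and 12 N-MYC (32.9%). SUZ12 was called at 0 (13.7%) and H3K27me3 at 1 (25.8%). These included Rfx5, Rfxank and Rfxap, the subunits of the RFX complex that recruits Nlrc5 and Ciita to promoters, with EZH2 folds of 5.94, 4.46 and 6.42. Irf1, an interferon-induced activator of both pathways, had EZH2 at 4.16 and N-MYC at 4.67. Irf8, a factor of myeloid and B cells, had H3K27me3 (3.41), N-MYC (4.21) and a low H3K4me3 peak (7.99) at its start and no EZH2, p300 or H3K27ac there, but H3K27ac (18.1) and p300 (3.32) inside the gene. The NF-κB subunit gene Nfkb1 also lacked p300 at the start, and had H3K27me3 (5.07) and p300 (5.96) inside the gene.

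**Figure D4:**
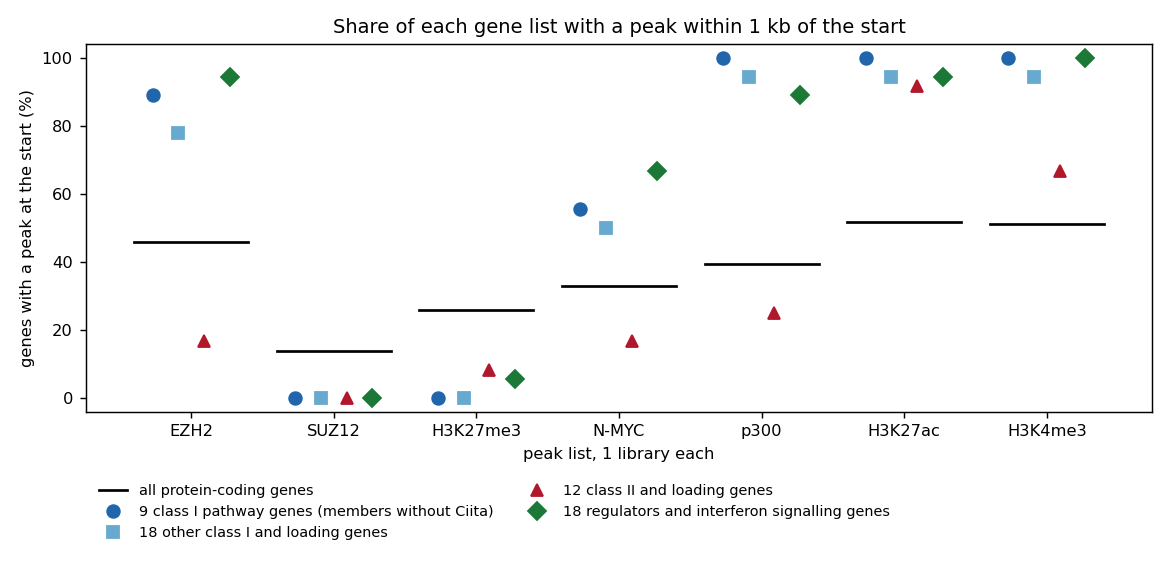
Share of genes (percent, linear axis) with a peak within 1 kb of the start, for 4 gene lists (symbols) in each of the 7 peak lists, with the share over all 21843 protein-coding genes as a black line. Class II genes lie below the line for EZH2, N-MYC and p300 and above it for H3K27ac and H3K4me3. All 4 lists are at 0 for SUZ12 and below the line for H3K27me3, where the class I lists are at 0.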

How the data were processed

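Chromatin of MYCN-driven T cell lymphoma cells was profiled with 7 antibodies, 1 library each; each deposited peak list belongs to 1 sample. Per the submitters' processing notes, FastQC, Bowtie2, SAMtools, MACS2 and deepTools were used and the builds are named as mm10 and GRCm38. Versions, thresholds, pooling and the use of the input libraries are not given in the sources used here. The fold enrichment of each peak is a linear ratio as deposited by the authors. The −log10 p-values and q-values are likewise as deposited, and the smallest −log10 q of a list was 2.00 to 2.08. A deposited whole-number score entered no result. Columns were identified from the layout and values of the files, which have no header.

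Genes came from RefSeq GRCm38.p6, on 21 chromosomes, without 57 protein-coding entries off the main assembly. Starts came from the RefSeq promoter table for 17492 genes, 7 members included. For the other 4351 genes, Tap2, Nlrc5 and Ciita included, strand was not used here and both ends were read, which makes a call more likely. Background shares are over all 21843 genes. Overlaps were computed in Python 3.11.15 (pandas 2.3.3, numpy 2.4.6) and tested on simulated data, and promoters were aligned with Biopython 1.88. Whether peaks are exonic or intronic was not analysed here. The text names all 10 members, genes of the fixed pathway and marker lists, and the 3 nearest genes of B2m, H2-K1 and Nlrc5. Members, lists, motifs and alternatives were chosen with earlier results of these data known.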

Additional observations from a re-analysis of the deposited data

How the results depend on the processing

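For 17 counts (members called on each list at the start and over the gene body, lists called at Ciita, and the median number of lists at the class I pathway genes) 129 values were computed under 10 alternatives. Of these, 106 equalled the reported value, 117 were within 1.5 times of it and 12 were not. The N-MYC count was the least stable. It fell from 5 to 2 members (H2-D1 and Nlrc5), at the start and over the gene body, both at a q-value of at most 1e-05 and at a fold enrichment of at least 4. Over the gene body it was 3 with an overlap of at least 200 bp and 3 with the summit inside the gene. Leaving out the 1 kb next to the start gave gene-body counts of 5 for EZH2, 0 for N-MYC and 5 for p300. With every list limited to the 9798 most significant peaks, Ciita kept 1 of its 3 gene-body lists, H3K27me3. Start windows of 2 kb and of 5 kb each gave Ciita 1 list, H3K27ac, from a peak beyond its high-coordinate end, within the Dexi gene. The cause of these shifts was not tested. EZH2 at the start stayed at 8 members, and SUZ12 at 0, under the 9 alternatives run for each. The unknown depth and the single library per antibody limit all values.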

Other observations

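The constitutive subunits that Psmb8, Psmb9 and Psmb10 replace in the immunoproteasome are Psmb5, Psmb6 and Psmb7. All 3 had EZH2, p300, H3K27ac and H3K4me3 at the start and none had SUZ12 or H3K27me3, a combination found at 29.7% of all genes. Their EZH2 folds were 6.10, 4.79 and 5.25, next to 5.79 at Psmb8, 7.22 at Psmb9 and 6.06 at Psmb10. The Psmb9 value is that of the peak over the Tap1 start, and the EZH2 peak within Psmb9 had a fold of 5.51. N-MYC was called at Psmb5 (3.54) and Psmb7 (4.03) and not at Psmb6, next to 3.27 at Psmb9, 4.88 at Psmb10 and no call at Psmb8. The induced and the constitutive subunits thus carried the same 4 features, which are common at promoters with H3K4me3. In the ranking by H3K4me3 fold above, EZH2 was called at 69.9% of group 4, whose folds include those of Psmb6 and Psmb7. In group 7, whose folds include that of Psmb5, it was called at 93.9%.

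Genes with the most similar pattern at the start were found as those with the smallest Euclidean distance over the 7 lists, on the log2 of the strongest fold, with a value of 1 where no peak was called. For B2m they were Ppp1r37 (distance 0.179), Srrt (0.183) and Lrrc59 (0.199), with N-MYC folds of 3.67, 3.88 and 3.80. For H2-K1 they were Chmp1a and Spata33 (both 0.189, with the same peaks) and Phactr4 (0.221), which also lacked N-MYC. For Nlrc5 they were Guk1 (0.257), Cyp2u1 (0.359) and Helb (0.361), with N-MYC folds of 7.05, 7.09 and 6.34 and no EZH2. For Ciita 6030 genes were tied at a distance of 0, those without a peak at the start, and none is named.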
